A study of Homo sapiens with 9 samples.

Results

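WDR7, PNKD, GXYLT1, MOB3B, TMEM9B and PPIAL4A are 6 of the 18852 genes named on the array, chosen because their transcripts changed strongly with 1 of a pair of hairpins aimed at the same gene. All 10 probes that carry these 6 symbols were taken, of 48803 on the array. MCF10A, an established line of non-tumorigenic human breast epithelial cells, had received a lentivirus that carried a short hairpin RNA and was then selected with puromycin. The hairpin was sh-34 or sh-35, both directed at RND1, in the tested cells, and a scramble hairpin in the control cells, so all 3 groups had been through infection and selection. Total RNA was hybridized to Illumina bead arrays, 3 arrays for sh-34, 3 for sh-35 and 3 for scramble. No label names separate cultures for the 3 replicates, so each p-value is set against a spread that may be technical.

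A short hairpin RNA is cut by Dicer to a small duplex, and 1 strand guides an Argonaute protein to transcripts with a matching sequence. Pairing over the whole guide leads to cleavage of the intended transcript, while pairing of the guide's seed alone can lower transcripts that were not intended. Hairpins of different sequence against the same gene are used together because they share the intended target and usually not the seed. The hairpin and probe sequences were not used here, so no seed was searched for, and whether any of these genes was silenced directly by a hairpin was not tested.

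The 6 genes come from different pathways. WDR7 encodes a WD-repeat protein that forms the Rabconnectin-3 complex with a DMXL protein and assists assembly of the V-ATPase, the proton pump of acidic organelles. PNKD encodes a protein with the fold of hydroxyacylglutathione hydrolase and is mutated in paroxysmal nonkinesigenic dyskinesia. GXYLT1 adds xylose to the O-glucose on the EGF repeats of Notch. MOB3B belongs to the MOB family of kinase adaptors and activators. TMEM9B is a lysosomal membrane protein, known for a part in TNF signalling to NF-kB. PPIAL4A is a copy of the cyclophilin A gene PPIA.

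The starts of 4 genes are shown, because WDR7, PNKD and MOB3B were the lowest of the 6 with sh-34 and TMEM9B was the lowest with sh-35. No window was used for PPIAL4A, which was also low with sh-35. Each window holds 250 bases before and 50 after the RefSeq start on GRCh38.p14, printed 5′ to 3′ on the gene's strand. Capitals mark GGGCGG (the GC box) and CCAAT, each searched on both strands, so that CCGCCC is also in capitals, and neighbouring matches may share bases. The windows are chr18:56651109-56651408 on the plus strand for WDR7, chr2:218322929-218323228 on the plus strand for PNKD, chr9:27529765-27530064 on the minus strand for MOB3B and chr11:8964898-8965197 on the minus strand for TMEM9B.
WDR7: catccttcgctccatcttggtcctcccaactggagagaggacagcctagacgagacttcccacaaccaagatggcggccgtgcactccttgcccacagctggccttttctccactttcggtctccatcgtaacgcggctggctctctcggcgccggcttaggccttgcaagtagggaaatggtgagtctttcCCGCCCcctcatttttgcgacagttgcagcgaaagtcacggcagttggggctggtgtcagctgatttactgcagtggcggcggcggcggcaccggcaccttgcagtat
PNKD: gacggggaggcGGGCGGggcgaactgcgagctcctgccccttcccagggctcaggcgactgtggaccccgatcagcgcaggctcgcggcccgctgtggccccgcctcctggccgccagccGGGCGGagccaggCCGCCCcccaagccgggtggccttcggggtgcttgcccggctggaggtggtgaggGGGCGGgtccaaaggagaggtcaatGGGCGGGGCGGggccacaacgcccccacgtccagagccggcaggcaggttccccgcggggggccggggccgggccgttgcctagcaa
MOB3B: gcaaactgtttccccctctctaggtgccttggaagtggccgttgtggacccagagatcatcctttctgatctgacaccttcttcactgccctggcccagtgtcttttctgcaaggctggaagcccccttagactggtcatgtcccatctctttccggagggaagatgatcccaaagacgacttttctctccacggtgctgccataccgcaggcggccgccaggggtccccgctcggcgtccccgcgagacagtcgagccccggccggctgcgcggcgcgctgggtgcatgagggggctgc
TMEM9B: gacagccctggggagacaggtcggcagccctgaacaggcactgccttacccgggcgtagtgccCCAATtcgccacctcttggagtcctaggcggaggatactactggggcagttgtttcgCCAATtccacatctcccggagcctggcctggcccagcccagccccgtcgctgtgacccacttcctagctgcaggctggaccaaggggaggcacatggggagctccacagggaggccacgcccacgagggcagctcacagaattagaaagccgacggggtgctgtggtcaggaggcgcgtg

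The PNKD window, which is at a start inside the gene and not its outermost one, held 6 GC boxes at 77.0% G and C. The WDR7 window held 1 GC box at 59.7% G and C, and the MOB3B window held none of the 4 motifs searched at 62.7%. The TMEM9B window held 2 CCAAT boxes at 65.0% G and C. The GC box was present in 45.0% and CCAAT in 34.6% of all 35116 windows of this length, against 11.5% for TATAAA and 7.26% for CACGTG, neither of which matched in a printed window. The median window had 58.7% G and C. None of the 4 motifs was in all 3 printed windows of WDR7, PNKD and MOB3B, the genes lowest with sh-34. Only 1 start of each gene was read, which need not be the start of the transcript that a probe measured. The GXYLT1 window, not printed, held 3 GC boxes. A match of letters is a description and not a binding site.

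Array medians lay between 46.6 and 53.4 signal units, and 23.5% to 26.4% of the probes on an array were above background, meaning a detection p under 0.01. The lowest signal above background ranged from 110.1 to 144.1 between arrays. Pairs of arrays within a group correlated at 0.992 to 0.994 and pairs from different groups at 0.962 to 0.974. The single RND1 probe was above background on 0 of 9 arrays, with signals of 28.1 to 39.5 in sh-34 cells, 27.7 to 43.1 in sh-35 cells and 33.8 to 49.6 in scramble cells, so the array gives no check of the knock-down. All 7 of the 10 epithelial markers that had a probe were above background on all 9 arrays, and their summed signal was 14210 to 14460 with sh-34 and 14050 to 15540 with sh-35, against 23560 to 27140 with scramble. Of 9 markers of other cell types 8 had a probe, and 6 of those, PTPRC, CD3E, VWF, PDGFRB, ALB and GFAP, were above background on no array; the summed signal of the 8 was 456 to 492.8 with sh-34 and 546.8 to 564 with sh-35, against 435.3 to 449.2 with scramble. These sums weight the brightest markers, and single markers differed. At a limma adjusted p under 0.05, all epithelial markers but KRT18 fell with sh-34, where KRT18 differed by 0.40 (log2). With sh-35 all but KRT5, KRT18 and EGFR fell, and these differed by -0.04, 0.10 and -0.08. PECAM1 and COL1A1 were above background on only 3 and 1 of 9 arrays, so the second sum is mostly background signal. The part of these shifts in the results below was not tested. In bulk RNA, fewer cells that express a gene and less RNA per cell cannot be told apart.

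Signals below are the deposited ones, in arbitrary units with the background included. Differences are on the log2 scale after background correction and quantile normalization, and they come with the standard error (SE) of 1 model over the 9 arrays. Where the changes of probes of the same gene are compared, the SE comes only from the arrays of the groups compared, outside that model. The 6 genes were chosen on these same contrasts, so their differences are given as a description with no p-value.

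WDR7 was lost from detection with sh-34 and not with sh-35, on both probes that could measure it. Probe ILMN_2383516 had signals of 81.88, 70.14 and 80.92 with sh-34 and of 283.8, 276.9 and 297.8 with sh-35, against 281.4, 314.7 and 220.0 with scramble. All 3 sh-34 arrays were below background and below every other array, while the sh-35 and scramble ranges overlapped. The normalized level was 5.76 ± 0.13 with sh-34 and 7.97 ± 0.12 with sh-35, against 7.93 ± 0.25 with scramble (log2, SD, n = 3 each). Since sh-34 gave only a bound, the transcript was at least 2.52-fold lower with sh-34 than with scramble and at least 2.6-fold higher with sh-35 than with sh-34. Such a bound sets the measured group against the lowest signal above background on the arrays of the other group. The fitted difference of sh-35 from scramble was 0.04 on the log2 scale.

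The second WDR7 probe, ILMN_1689029, gave the same order at lower signal. It read 47.2, 51.2 and 55.38 with sh-34 and 132.3, 197.0 and 123.9 with sh-35, against 180.8, 181.7 and 204.2 with scramble. The sh-34 arrays were again all below background, and 1 of the 3 sh-35 arrays lay within the scramble range. The bound was at least 1.7-fold lower with sh-34 than with scramble, and at least 1.19-fold higher with sh-35 than with sh-34. With both probes below background on every sh-34 array, their amounts of loss cannot be compared beyond these bounds. Their levels correlated at 0.92 over the 9 arrays. For sh-35 the fitted differences from scramble were -0.52 and 0.04, which set the probes apart by -0.56 (SE 0.37). The third probe, ILMN_2281167, read 20.63 to 38.93 with sh-34 and 29.42 to 43.37 with sh-35, against 34.31 to 49.33 with scramble, and was above background on no array, so it bears on neither hairpin.

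PNKD gave different readings from its 3 probes. Probe ILMN_1774604 had signals of 150.1, 168.3 and 163.0 with sh-34 and of 750.5, 890.4 and 931.2 with sh-35, against 609.6, 635.4 and 493.0 with scramble. The 3 groups did not overlap, with every sh-34 array below and every sh-35 array above all scramble arrays. Its level was 7.11 ± 0.12 with sh-34 and 9.68 ± 0.12 with sh-35, against 9.08 ± 0.14 with scramble (log2, SD, n = 3 each), which is 3.91-fold lower with sh-34 and 1.52-fold higher with sh-35. All 9 arrays were above background, so both values are measured and not bounds.

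Probe ILMN_1711810, which the platform annotation assigns to another PNKD transcript, read 202.0, 158.8 and 220.9 with sh-34 and 192.0, 215.3 and 197.2 with sh-35, against 199.9, 185.4 and 183.3 with scramble. All 9 arrays were above background and the sh-34 range covered the whole scramble range. The fitted differences were 0.05 for sh-34 and 0.02 for sh-35. Its sh-34 change was 2.01 (SE 0.22, log2) above that of ILMN_1774604 and its sh-35 change was -0.58 (SE 0.12) from it, with a correlation of -0.15 between the probes over the 9 arrays. Probe ILMN_1652161, annotated to the same transcript as ILMN_1774604, read 91.78 to 102.6 with sh-34 and 98.36 to 129.7 with sh-35, against 93.16 to 116.6 with scramble. It was above background on 1 of 9 arrays, so it could not repeat the low reading of its partner. The low PNKD reading with sh-34 thus rested on 1 of 3 probes.

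GXYLT1 was lower with sh-34 and higher with sh-35 than with scramble. Its single probe, ILMN_1747183, had signals of 235.3, 214.1 and 231.9 with sh-34 and of 1160, 1071 and 1089 with sh-35, against 450.5, 363.1 and 356.3 with scramble. None of the 3 groups overlapped another. The level was 7.68 ± 0.05 with sh-34 and 10.08 ± 0.15 with sh-35, against 8.50 ± 0.08 with scramble (log2, SD, n = 3 each). This is 1.76-fold lower with sh-34 and 3.01-fold higher with sh-35. The sh-35 minus scramble difference was the 68th highest of 12866 probes tested, while the sh-34 minus scramble difference was the 396th lowest, so the larger departure was the higher level with sh-35. The authors' deposited table lists the probe at a ratio of 0.585 for sh-34 over scramble and of 2.85 for sh-35 over scramble. That table comes from the same arrays, so it adds no separate support.

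MOB3B was low with both hairpins. Its single probe, ILMN_1717046, read 63.35, 74.2 and 61.55 with sh-34 and 117.6, 134.3 and 145.4 with sh-35, against 257.1, 191.0 and 228.4 with scramble. The 3 groups did not overlap, and the sh-35 arrays lay between the others. The probe was above background on 0 of 3 sh-34 arrays, 1 of 3 sh-35 arrays and all 3 scramble arrays. It was at least 2.07-fold lower with sh-34 than with scramble, and the fitted sh-35 value was 2.01-fold lower than scramble. Against sh-34 the sh-35 level was at least 1.03-fold higher, with a fitted difference of 1.14 (SE 0.13, log2). In the authors' deposited table, from the same arrays, the ratio to scramble was 0.295 for sh-34 and 0.589 for sh-35. That table holds 358 probes, of which only the GXYLT1 and MOB3B probes are among the 10 described here. Its smallest absolute fold was 1.4. Its largest p by the authors' unadjusted test was 0.00111 for sh-34 and 0.00175 for sh-35. Its probes thus had a small p with both hairpins, so absence from it does not mean no change with 1 hairpin.

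TMEM9B was low with sh-35. Its single probe, ILMN_2100815, had signals of 356.1, 310.6 and 317.1 with sh-35 and of 1465, 1375 and 1726 with sh-34, against 2060, 1798 and 1699 with scramble. All 9 arrays were above background. The sh-35 arrays were far below all others, and the highest sh-34 array exceeded the lowest scramble array. The level was 8.19 ± 0.20 with sh-35 and 10.57 ± 0.16 with sh-34, against 10.76 ± 0.02 with scramble (log2, SD, n = 3 each). This is 5.95-fold lower with sh-35, the 5th lowest of 12866 differences, and a fitted difference of -0.19 with sh-34.

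PPIAL4A was likewise low with sh-35 and bright with the others. Its single probe, ILMN_1776260, read 1386, 1741 and 1775 with sh-35 and 7886, 6641 and 7639 with sh-34, against 8482, 6384 and 6330 with scramble. The sh-34 and scramble ranges overlapped, and each sh-35 array was below all 6 others. The level was 10.67 ± 0.15 with sh-35 and 12.87 ± 0.09 with sh-34, against 12.70 ± 0.12 with scramble (log2, SD, n = 3 each), which is 4.08-fold lower with sh-35. PPIAL4A and PPIA are near-identical copies, so which of their transcripts this probe read cannot be told apart from the signals. The PPIA probe was dimmer, at 159.6, 207.9 and 204 with sh-35 and 312.4, 321.3 and 312.9 with sh-34, against 382.1, 286.2 and 321.9 with scramble. PPIA fell by 0.96 on the log2 scale with sh-35 (SE 0.11, limma adjusted p = 5.8e-05), and its sh-34 difference was -0.03 (adjusted p = 0.88). The probes of the related copies PPIAL4C and PPIAL4G, 3 in all, were above background on no array.

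**Figure D1:**
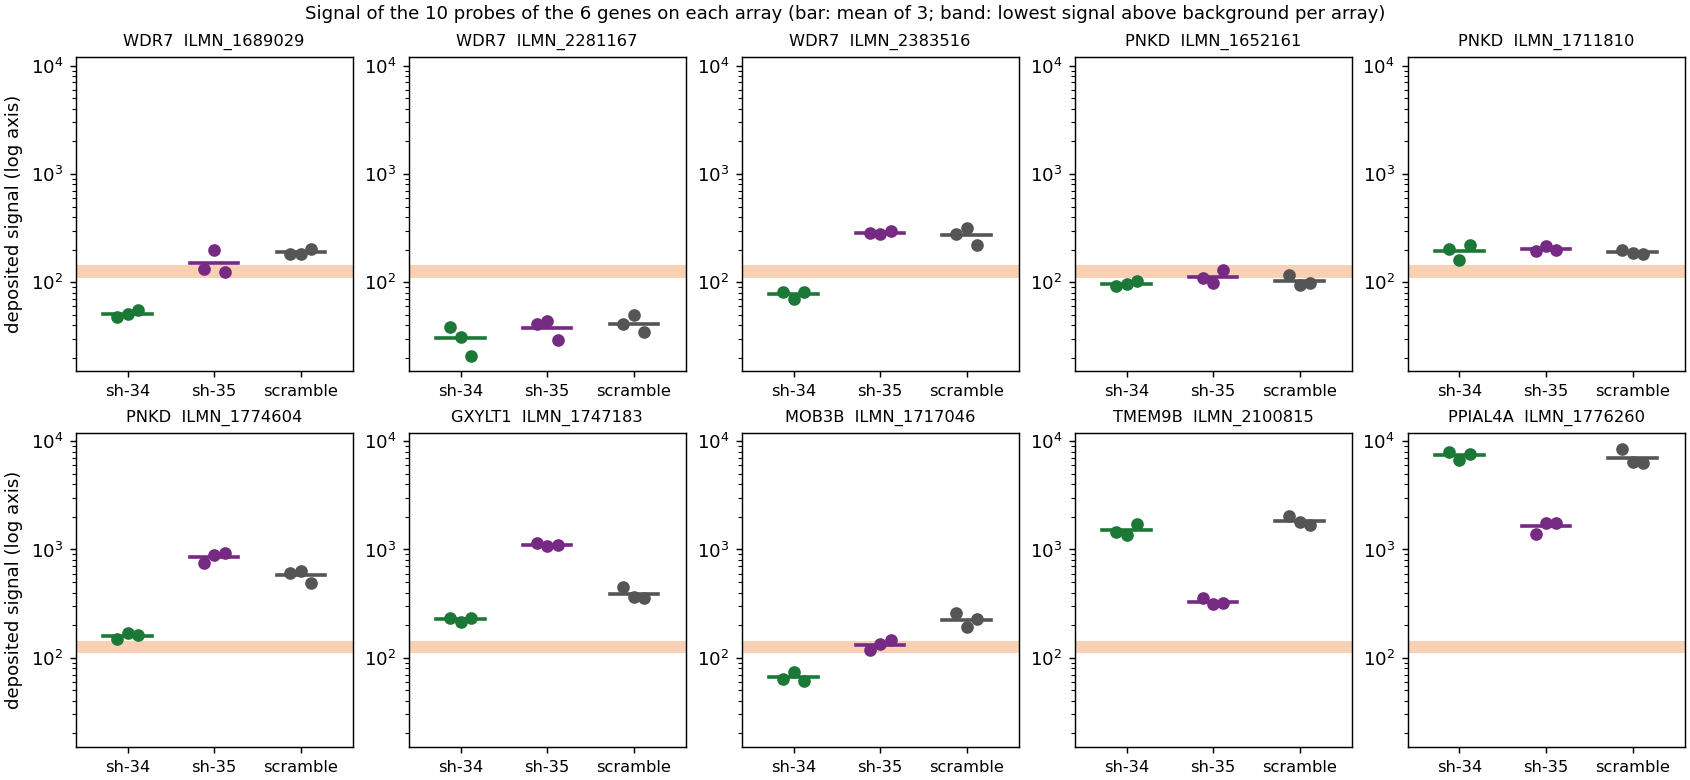
Deposited signal (log axis) of each of the 10 probes on each of the 9 arrays, by group, with a bar at the mean of 3 arrays and a shaded band from 110.1 to 144.1, the range over arrays of the lowest signal above background. The sh-34 points of WDR7 probes ILMN_1689029 and ILMN_2383516 and of MOB3B lie under the band, the sh-35 points of TMEM9B and PPIAL4A lie under all their other points, and PNKD probe ILMN_1711810 shows 3 groups at 1 height.

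Set side by side by their fitted differences, 4 of the 8 probes tested were at least 2-fold lower with sh-34 than with scramble, where 1.62% of all 12866 probes tested were, and 0 of 8 were at least 2-fold higher, where 1.20% were. For sh-35 the count was 3 of 8, where 2.00% of all probes were, and 1 of 8 was at least 2-fold higher, where 2.89% were. In the direct contrast, 2 of 8 were at least 2-fold lower with sh-35 than with sh-34 (1.43% of all probes) and 5 of 8 were at least 2-fold higher (2.59%). The choice of the genes fixes these counts, and they rest on fitted values also where a group was below background. For WDR7 probe ILMN_1689029 the bounds above are only 1.7-fold for sh-34 against scramble and 1.19-fold for sh-35 against sh-34, and for MOB3B the second is 1.03-fold. MOB3B was just past the limit with sh-35, at -1.01, and the count of 3 was 2 with an offset of 50 (-0.81 for MOB3B), with the deposited log2 values (-0.76), with no background correction (-0.84), under median scaling (-0.97), with detection required on all 9 arrays, and without scramble replicate 1 or 3 or sh-35 replicate 1 or 2 (-0.98 to -0.92). The 8 tested probes had median differences of -1.39 for sh-34 and -0.25 for sh-35, against 0.0229 and -0.0127 over all probes. The sh-34 arrays did not overlap scramble and were lower for 5 of 8 probes (23.0% of all probes) and higher for 0 (25.0%), and the sh-35 arrays were lower for 3 (25.6%) and higher for 2 (24.5%). The sh-35 arrays did not overlap the sh-34 arrays and were lower for 2 (26.4%) and higher for 5 (24.0%). Loss with 1 hairpin only, taken as at least 2-fold lower with it and above -0.5 on the log2 scale with the other, held for 4 of the 8 probes. These were WDR7 probe ILMN_2383516 and PNKD probe ILMN_1774604 for sh-34, with TMEM9B and PPIAL4A for sh-35. By the same limits 127 probes (0.987%) were low with sh-34 only, 131 (1.02%) with sh-35 only and 48 (0.373%) with both, MOB3B among the last. The MOB3B call ends in the settings just named. WDR7 probe ILMN_1689029 missed the limit narrowly at -0.52 with sh-35 and met it under others, at -0.35 with the deposited log2 values, -0.41 with an offset of 50 and -0.45 to -0.37 without scramble replicate 3 or sh-35 replicate 1 or 3.

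**Figure D2:**
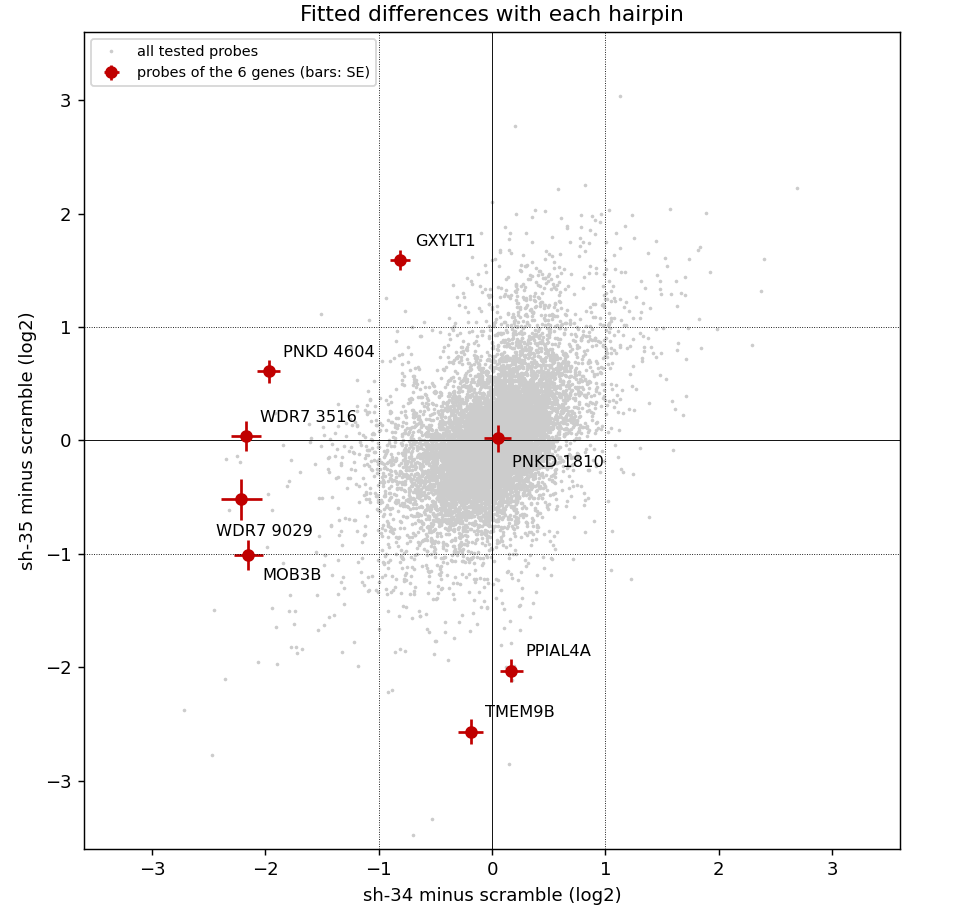
Fitted log2 difference from scramble with sh-34 (horizontal) and with sh-35 (vertical) for all 12866 tested probes in grey and the 8 tested probes of the 6 genes in red, with bars of 1 SE and the last digits of the probe where a gene has several. TMEM9B and PPIAL4A sit low on the vertical axis near 0 on the horizontal one, WDR7 and MOB3B sit far left, PNKD has 1 probe far left and 1 at the centre, and GXYLT1 lies left and high.

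For each tested probe, the 3 named probes of other genes with the most similar levels over the 9 arrays are given by Pearson's r. TTC5 and STRADB followed WDR7 probe ILMN_2383516 at r = 0.992 and 0.993, with differences of -1.61 and -1.59 for sh-34 and of -0.01 and 0.02 for sh-35. C8orf33 was next to them at r = 0.993 and -0.87 for sh-34. POLR3A, BLVRA and CYB5A followed WDR7 probe ILMN_1689029 at r = 0.991, 0.99 and 0.986. ATP5MG, NFIB and PPIL1 followed PNKD probe ILMN_1774604 at r = 0.995, 0.993 and 0.993, with sh-34 differences of -0.69, -0.93 and -0.44. FEZ1, SAP30L and LRIG2 came closest to PNKD probe ILMN_1711810, at r = 0.92, 0.893 and 0.885. TENT5A, SLC7A1 and GRPEL2 followed GXYLT1 at r = 0.995, 0.993 and 0.992, with sh-35 differences of 0.69, 0.68 and 0.26. FHDC1, KIAA2013 and CRLF3 followed MOB3B at r = 0.987, 0.985 and 0.982. LAMP1, TGIF2 and HECTD3 followed TMEM9B at r = 0.993, 0.992 and 0.992, with sh-35 differences of -1.08, -0.85 and -1.22. NDUFB8, PSPH and ZNF275 followed PPIAL4A at r = 0.996, 0.994 and 0.992, with sh-35 differences of -1.23, -1.45 and -0.41. Among the 6 genes, TMEM9B and PPIAL4A correlated at 0.98, and WDR7 probe ILMN_2383516 and PNKD probe ILMN_1774604 at 0.97. All these correlations are a description over 9 arrays, which share 3 groups.

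Whether genes of the same pathways changed was read from 7 lists of related genes, 119 in all, of which 92 had a tested probe. Each gene was read on its brightest tested probe, and a gene rose or fell where limma's adjusted p was under 0.05 over all 12866 probes. With sh-34, 12 of the 92 rose and 24 fell, or 39.1%, where 34.8% of all probes passed, 17.5% higher and 17.3% lower. With sh-35, 18 rose and 25 fell, or 46.7%, where 39.2% of all probes passed, 19.1% higher and 20.1% lower. Between the hairpins 24 were higher and 18 lower with sh-35 than with sh-34, or 45.7%, where 39.2% of all probes passed, again 19.1% higher and 20.1% lower. The median differences over the 92 were -0.03 and -0.02.

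The V-ATPase list holds subunits of the pump that the WDR7 complex helps to assemble, with accessory proteins and members of that complex. With sh-34, 0 of 19 rose and 6 fell, at a median of -0.13. With sh-35, 2 rose and 9 fell, at a median of -0.25, whereas the WDR7 probes were low with sh-34. The 2 that rose, DMXL2 and NCOA7, are not subunits of the pump. ATP6V1C1, a subunit of the cytosolic part, fell by 1.27 with sh-34 (limma adjusted p = 2.8e-06, SE 0.09) and by 0.69 with sh-35 (SE 0.09, adjusted p = 0.00012). The catalytic subunit gene ATP6V1A fell by 0.99 with sh-34 (SE 0.10, adjusted p = 2.1e-05), and its sh-35 difference was -0.06 (adjusted p = 0.68). The direct contrast put ATP6V1A 0.94 higher with sh-35 than with sh-34 (adjusted p = 2.1e-05), the same order as WDR7. ATP6V1E1, a stalk subunit, fell by 1.04 with sh-35 (SE 0.08, adjusted p = 2.3e-06) and by 0.44 with sh-34. ATP6V0E1, of the membrane part, fell by 0.75 with sh-35 (SE 0.08, adjusted p = 2.2e-05) and by 0.36 with sh-34. DMXL2, whose protein is the partner of WDR7, rose by 0.70 with sh-35 (SE 0.13, adjusted p = 0.0011), and its sh-34 difference was 0.27 (adjusted p = 0.11). DMXL2 was above background on only 1 of 3 scramble arrays, so the size of these differences is uncertain. The DMXL1 probe was above background on no array.

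The glyoxalase and metallo-hydrolase list has 7 tested genes, of which 2 rose and 3 fell with sh-34, while 1 rose and 2 fell with sh-35. HAGH, the glyoxalase II gene and the closest relative of PNKD, fell by 0.40 with sh-34 (limma adjusted p = 0.0049, SE 0.09) and by 0.71 with sh-35 (SE 0.09, adjusted p = 8.2e-05). GLO1, glyoxalase I, fell by 0.40 with sh-34 (SE 0.09, adjusted p = 0.0049), and its sh-35 difference was 0.08. LACTB2 rose by 0.59 with sh-34 and by 0.39 with sh-35. LACTB, a mitochondrial protein, was counted in this list but is of the serine beta-lactamase type and lacks the metallo-hydrolase fold. It is thus not a fold relative of PNKD. LACTB rose by 0.52 with sh-34 (SE 0.09, adjusted p = 0.00091). With sh-35 it fell by 0.31 (adjusted p = 0.015, and up to 0.062 without scramble replicate 3 or sh-35 replicate 2). Its other probes differed by 0.09 and 0.34 with sh-34.

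Of 13 Notch genes, 1 rose and 3 fell with sh-34, while 7 rose and 2 fell with sh-35, at medians of 0.10 and 0.35. LFNG, a Fringe glycosyltransferase, rose by 0.53 with sh-34 (limma adjusted p = 0.0011, SE 0.09) and by 0.76 with sh-35 (SE 0.09, adjusted p = 6.7e-05). POGLUT3, an O-glucosyltransferase, rose by 0.92 with sh-35 (SE 0.14, adjusted p = 0.00033). It was above background on only 1 of 3 scramble arrays, so the size of its rise is uncertain. The transcriptional target HEY1 was above background on 0 scramble arrays and was at least 1.83-fold higher with sh-35 (adjusted p = 3.4e-05). HES1, another transcriptional target, went the other way. It fell by 0.59 with sh-34 and by 0.33 with sh-35 (adjusted p = 0.0015 and 0.028). The ligand gene JAG2 fell by 1.05 with sh-35 (SE 0.10, adjusted p = 1.1e-05). GXYLT1, chosen on these contrasts, was 3.01-fold higher with sh-35. There 7 of 13 list genes rose and 2 fell, where 19.1% of all probes were higher and 20.1% lower. A link between GXYLT1 and the list was not tested. Its relative GXYLT2 was above background on no array. The rises of POGLUT1 and EOGT with sh-35 did not pass under median scaling, with adjusted p up to 0.18 and 0.059 over the alternatives. POFUT1 was counted on its brighter probe, which did not pass with either hairpin. Its other tested probe fell by 0.73 with sh-34 and by 0.89 with sh-35 (limma adjusted p = 7.9e-05 and 1.2e-05).

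Of 15 genes for MOB proteins, related kinases and proteins that work with those kinases, 3 rose and 3 fell with sh-34, and 1 rose and 4 fell with sh-35. The kinase gene LATS2 rose by 0.48 with sh-34 (limma adjusted p = 0.0037, SE 0.10) and by 0.93 with sh-35 (SE 0.10, adjusted p = 3.1e-05). LATS2 was above background on only 1 of 3 scramble arrays, so the size of these rises is uncertain. STK38, a kinase bound by MOB proteins, fell by 0.52 with sh-34 (SE 0.09, adjusted p = 0.0011). STK25 fell by 0.50 with sh-35 (SE 0.09, adjusted p = 0.001). Of the closest relatives of MOB3B, MOB3A fell by 0.54 with sh-35 (SE 0.09, adjusted p = 0.00056), with a sh-34 difference of -0.09 (adjusted p = 0.44), and the direct contrast was -0.44 (adjusted p = 0.002). MOB3C rose by 0.37 with sh-34 (adjusted p = 0.026, and 0.1 under the alternative that raised it most). MOB1A and MOB1B were above background on at most 2 arrays and were not tested.

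In the list for TMEM9 relatives, chloride transporters and TNF signalling, 2 of 15 rose and 4 fell with sh-34, and 1 rose and 4 fell with sh-35. TMEM9, the paralog of TMEM9B, fell by 0.38 with sh-35 (SE 0.09, limma adjusted p = 0.0043), and its sh-34 difference was -0.19 (adjusted p = 0.11). The direct contrast for TMEM9 was -0.19 (adjusted p = 0.1), so a difference between hairpins was not shown. TRADD, an adaptor of TNF receptors, fell by 0.54 with sh-35 (SE 0.09, adjusted p = 0.00069), and its sh-34 difference was -0.24 (adjusted p = 0.057). Its other tested probe fell by 0.44 with sh-34 (adjusted p = 0.0072) and by 0.61 with sh-35 (adjusted p = 0.00078). The lysosomal OSTM1 and the endosomal transporter CLCN3 fell by 0.94 and 0.69 with sh-34 (SE 0.13 and 0.09, adjusted p = 0.00021 and 0.00014), with sh-35 differences of 0.09 and -0.02.

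Of 11 cyclophilin genes, 3 rose and 1 fell with sh-34, and 3 rose and 1 fell with sh-35, the last being PPIA. Whether the PPIA and PPIAL4A probes read separate transcripts cannot be told, as said above. PPIL3 rose by 0.61 with sh-34 (limma adjusted p = 0.0002, SE 0.08) and by 0.50 with sh-35 (SE 0.08, adjusted p = 0.0006). PPIH rose by 0.64 with sh-35 (SE 0.09, adjusted p = 0.00021) and by 0.27 with sh-34 (adjusted p = 0.037). PPIL1, a cyclophilin of the spliceosome, fell by 0.44 with sh-34 (SE 0.08, adjusted p = 0.0012), with a sh-35 difference of 0.14.

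The machinery that handles hairpins was also read. With sh-34, 1 of 12 genes rose and 4 fell, and with sh-35, 3 rose and 3 fell. TARBP2, a partner of Dicer, fell by 0.74 with sh-34 (limma adjusted p = 0.0001, SE 0.09), with a sh-35 difference of 0.06. XPO5, the export factor for hairpin precursors, fell by 0.54 with sh-34 and by 0.61 with sh-35 (SE 0.08 each, adjusted p = 0.00054 and 0.00018). DICER1 rose by 0.66 with sh-35 (SE 0.09, adjusted p = 0.00014), though its other tested probe did not pass. TNRC6A, which links Argonaute to deadenylation, rose by 0.65 with sh-35 (SE 0.08, adjusted p = 9.3e-05).

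**Figure D3:**
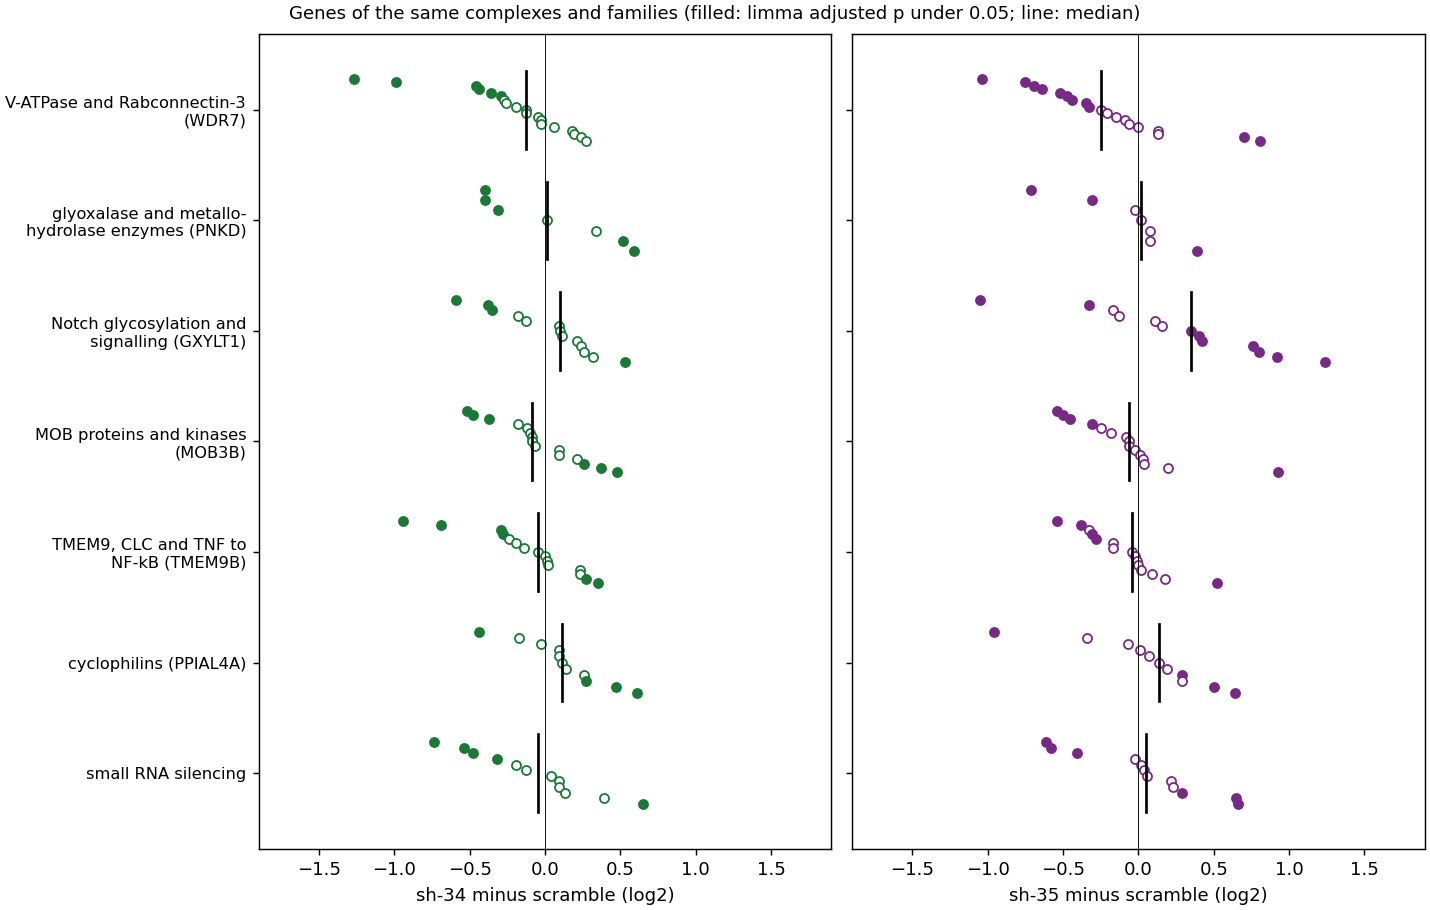
Log2 difference from scramble with sh-34 (left) and with sh-35 (right) for each tested gene of the 7 lists, filled where limma's adjusted p was under 0.05, with a line at the median of the list. V-ATPase genes lie mostly left of 0 in both panels, at medians of -0.13 and -0.25, and Notch genes lie further right with sh-35, at 0.35, than with sh-34, at 0.10.

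The genes beside each of the 6 were read to see whether a change extended along the chromosome. The 3 nearest tested genes on each side, with TMBIM1 that overlaps PNKD, gave 37 genes. No limit was set on distance, so a gene called beside may lie far off along the chromosome. With sh-34, 4 of the 37 rose and 6 fell, or 27.0%, where 34.8% of all probes passed. With sh-35, 13 rose and 4 fell, or 45.9%, where 39.2% passed. Around the 3 genes lowest with sh-34, changes with that hairpin were 2 higher and 1 lower of 6 beside WDR7, 1 higher and 2 lower of 7 beside PNKD, and none of 6 beside MOB3B. Beside WDR7, FECH rose by 0.43 (SE 0.09, limma adjusted p = 0.0028) and NEDD4L by 0.45 (SE 0.08, adjusted p = 0.0014), while CCDC68 fell by 0.56 (adjusted p = 0.029, and 0.12 under the alternative that raised it most). FECH also rose by 0.71 and TCF4 by 0.64 with sh-35 (adjusted p = 7.5e-05 and 0.0019). TCF4 was above background on only 1 of 3 scramble arrays, so the size of its rise is uncertain. TMBIM1, within the span of PNKD, fell by 0.58 with sh-34 (SE 0.11, adjusted p = 0.0026) and by 0.61 with sh-35 (SE 0.11, adjusted p = 0.0015), which is not the pattern of PNKD probe ILMN_1774604. CNOT9, also beside PNKD, fell by 0.91 with sh-34 (SE 0.09, adjusted p = 2.7e-05), with a sh-35 difference of 0.00. IGFBP2 rose by 0.77 with sh-34 and by 0.54 with sh-35 (adjusted p = 0.0024 and 0.014, the second up to 0.061 over the alternatives). USP37 rose by 0.48 with sh-35 and CTDSP1 fell by 0.34 there (adjusted p = 0.003 and 0.017, the second up to 0.063).

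Beside GXYLT1, PKP2 rose by 0.33 and PPHLN1 fell by 0.30 with sh-34 (limma adjusted p = 0.013 and 0.027, and up to 0.13 and 0.089 over the alternatives). YAF2 was at least 1.12-fold lower with sh-34 (adjusted p = 0.015, and up to 0.062) and rose by 0.31 with sh-35 (adjusted p = 0.042, and 0.14 under the alternative that raised it most). ZCRB1 was at least 1.46-fold lower with sh-35 (adjusted p = 0.00013). Beside MOB3B, IFT74 rose by 0.57 (SE 0.11, adjusted p = 0.0017) and ACO1 by 0.30 (adjusted p = 0.016, and up to 0.31) with sh-35, and C9orf72 was at least 1.16-fold lower there (adjusted p = 0.019, and up to 0.23). Beside TMEM9B, none of 6 genes fell with sh-35, the hairpin with which TMEM9B was low. NRIP3 rose there by 0.69 (SE 0.11, adjusted p = 0.0005) and was at least 1.07-fold lower with sh-34 (adjusted p = 0.02, and up to 0.078).

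Around PPIAL4A, whose probe was low with sh-35, 5 of 6 neighbours rose with that hairpin and none fell, where 19.1% of all probes were higher. That probe may have read PPIA transcripts, so its signal need not come from this place on the chromosome. The neighbours were taken at any distance, so they need not be local to PPIAL4A. PHGDH, an enzyme of serine synthesis, rose by 1.65 with sh-35 (SE 0.10, limma adjusted p = 6e-07), with a sh-34 difference of 0.17. FAM72B and FAM72D rose by 1.41 and 1.07 with sh-35 (SE 0.14 and 0.12, adjusted p = 2e-05 and 3.5e-05), and they are near-identical copies whose probes may read each other. NOTCH2, which is also in the Notch list, and RNF115 rose by 0.40 and 0.41 with sh-35 (adjusted p = 0.0024 and 0.0033). With sh-34 none of the 6 passed.

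**Figure D4:**
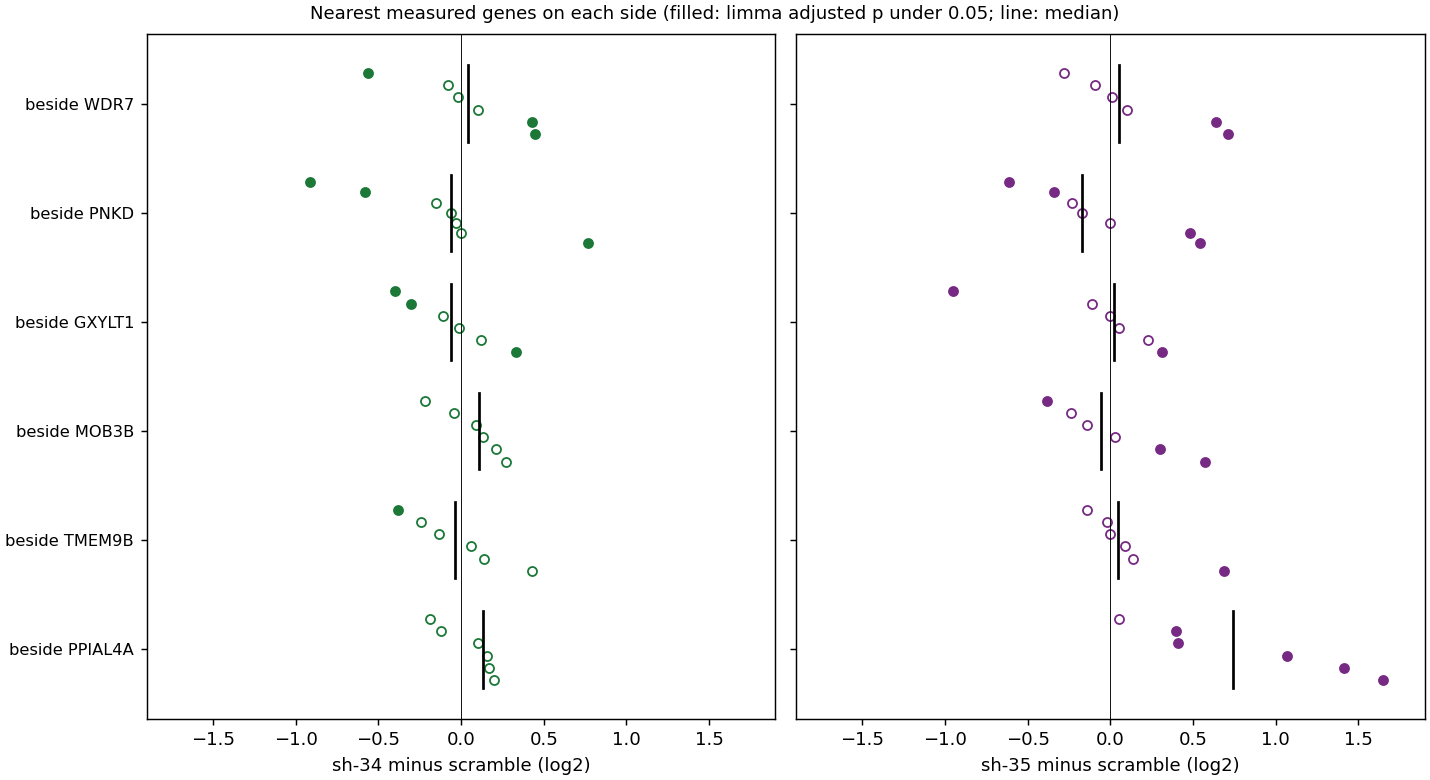
Log2 difference from scramble with sh-34 (left) and with sh-35 (right) for the nearest tested genes, at any distance, beside each of the 6 genes, filled where limma's adjusted p was under 0.05, with a line at the median. With sh-35 the neighbours of PPIAL4A lie right of 0, up to 1.65 for PHGDH, while 0 of 6 beside TMEM9B fell.

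The probe readings thus differ in how far they bear on a loss with 1 hairpin. For WDR7, 2 probes were above background on every sh-35 and scramble array and on no sh-34 array, which bounds the loss at 1.7-fold and 2.52-fold or more. For PNKD, the low reading came from 1 probe, and the measurable probe of another transcript had a fitted difference of 0.05. TMEM9B and PPIAL4A each had 1 probe, so no second probe of either symbol bears on their loss with sh-35. PPIA fell there too. Since the PPIAL4A probe may have read PPIA transcripts, whether these are readings of separate genes cannot be told. MOB3B was low with both hairpins, and GXYLT1 was 1.76-fold lower with sh-34, short of the 2-fold limit, and 3.01-fold higher with sh-35. Whether unintended silencing by a hairpin produced any of these readings was not tested.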

How the data were processed

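The authors deposited signal intensity per probe and array, not normalized between arrays, with a detection p-value for each; per the submitters' processing notes, BeadStudio and Partek were used, with no versions. They also deposited a table of 358 probes with ratios to scramble, signed fold changes (a score here) and unadjusted p-values, and a table of log2 values, which were found to be the log2 signal minus each probe's median plus a constant. Array number limits the precision.

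Intensities were background-corrected (limma 3.58.1 in R 4.3.3, normexp with detection p-values, offset 16), quantile-normalized and put on the log2 scale. Probes with detection p under 0.01 on at least 3 of 9 arrays were tested, 12866 of 48803, in 1 limma model of 3 groups (6 residual degrees of freedom), with Benjamini-Hochberg adjustment at 0.05. The model was tested on simulated data. Symbols come from the platform annotation, which names 1 gene for 28098 probes, several for 13 and none for 20692. Promoter windows and gene order come from RefSeq (GRCh38.p14).

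The text names every probe of the 6 genes, up to 4 genes of each list with the smallest p in a hairpin contrast, and paralogs. It also names neighbouring genes past the threshold or overlapping, and the 3 most alike probes. NCOA7, POFUT1, POGLUT1, EOGT, HES1 and TNRC6B were added after their values were seen. The 6 genes and the lists were chosen with earlier results of these data known. Replicate numbers did not pair the samples (correlations of same-numbered deviations -0.0141 to 0.0590). The alternatives changed background correction, offset, normalization, filter, replicates and block. Both hairpin contrasts share the scramble arrays. The sources used here give no array chip or scan date.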

Additional observations from a re-analysis of the deposited data

Results flagged for a closer look

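PNKD probe ILMN_1774604 and GXYLT1 stand out because every sh-34 array lay below and every sh-35 array above all scramble arrays. The sh-35 minus sh-34 difference was 2.57 for the PNKD probe and 2.40 for GXYLT1 on the log2 scale. Both genes were chosen on these contrasts, so the difference was not tested.

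Among related and neighbouring genes, 4 passed limma's test in opposite directions with the hairpins. They were picked for passing so against the same scramble arrays, so that limma's direct contrast, which they also passed, adds no support, and its values are a description. LACTB differed by -0.83 (log2, sh-35 minus sh-34). TNRC6B, a partner of Argonaute, differed by -1.23, with levels of 8.26 ± 0.13 for sh-35 and 9.49 ± 0.08 for sh-34, against 8.84 ± 0.10 for scramble (log2, SD, n = 3 each). YAF2 differed by 0.71 and NRIP3 by 1.07, higher with sh-35 in both. For YAF2 and NRIP3 all 3 sh-34 arrays were below background, so the levels were at least 1.39-fold and at least 1.73-fold higher with sh-35 than with sh-34.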

How the results depend on the processing

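Of the recomputed differences of the 8 tested probes, 372 moved by less than 1 SD and 27 by more. The sign turned only near 0, for PNKD probe ILMN_1711810 in each contrast (-0.06 to 0.19 for sh-34) and for WDR7 probe ILMN_2383516 with sh-35 (-0.05 to 0.18). An offset of 50 gave the smallest sh-34 differences of the dim probes, -1.51 and -1.66 for WDR7 probes ILMN_1689029 and ILMN_2383516, -1.56 for MOB3B and -1.74 for PNKD probe ILMN_1774604; near background, the size of a loss depends on this choice. Requiring detection on all 9 arrays left 1 in place of 4 probes at least 2-fold lower with sh-34, since the WDR7 and MOB3B probes leave the test. Without a filter, 6 in place of 10 neighbouring genes passed with sh-34. The other 208 recomputed counts, taken over both directions where a test was run, stayed within 1.5 times. Among related genes that passed, the share that was higher with sh-34 was 33.3%, against 22.6% under median scaling and 23.3% with the deposited log2 values, and in the sh-35 minus sh-34 contrast it was 57.1%, against 68.6% and 70.6%. Counts in 1 direction moved more: without scramble replicate 3, and also without a filter, 2 in place of 6 neighbouring genes fell with sh-34; 7 in place of 12 related genes rose with sh-34 under median scaling; and 10 in place of 18 were lower in sh-35 minus sh-34 with the deposited log2 values. With the replicate number as a block, 4343 probes passed for sh-34, 4957 for sh-35 and 4954 for sh-35 minus sh-34, against 4477, 5045 and 5038 without it, and the block moved no count by over 1.5 times.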
